A study of Mus musculus with 6 samples.

Results

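Intermediate filament genes and the neuronal tubulin gene Tubb3 were examined in 2 mouse melanoma cell lines. The set held 10 genes, Vim, Nes, Krt8, Krt18, Des, Gfap, Nefl, Nefm, Lmna and Tubb3, of 20659 genes with a probe on the array. Their probes were all 12 non-control probes, of 39429, whose RefSeq accession belongs to one of these symbols. Of the genes, 9 had 1 probe and Gfap had 3, and the probes of Des and Nefm were each printed as 10 spots. The arrays, 3 for each line, compared B16-F1, a line of the B16 melanoma of the C57BL/6 mouse, with D5.1G4, for which the labels give only the name and the tumour type. Cells of both lines were left untreated for 24 h in RPMI-1640 with 10% serum and harvested at 75 to 95% confluence. The series title sets the comparison among mouse melanomas of unequal tumorigenicity. Each group is 1 cell line, and the labels do not say whether its 3 replicates were separate cultures, so all p-values here speak only of sample-to-sample spread, possibly of technical origin.

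Intermediate filaments are rope-like polymers of related coiled-coil proteins, and which of them a cell makes is a mark of its lineage. Keratins pair as type I with type II chains in epithelia, vimentin, desmin and GFAP form the filaments of mesenchymal, muscle and astroglial cells, neurofilament proteins those of neurons, and nestin joins vimentin in neural progenitors. Lamins are the nuclear branch of the family and line the inner nuclear membrane. Beta-III tubulin is not a filament protein of this family but a microtubule subunit used as a marker of neurons. Melanocytes arise from the neural crest, and vimentin is the usual intermediate filament of melanoma cells.

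Between 53.4% and 62.0% of the spots on an array were well above background, and 0 were saturated. The arrays carry 3 different scan times in their headers. B16-F1 replicates 2 and 3 shared scan 1, B16-F1 replicate 1 and D5.1G4 replicates 2 and 3 shared scan 2, and D5.1G4 replicate 1 was in scan 3. The 2 arrays of scan 1 had the largest shares of spots well above background. Signal is given as log2 of the processed intensity minus the 75th percentile of its array, so 0 is the upper quartile of all probes. Differences are B16-F1 minus D5.1G4. Tests were run in limma with Benjamini-Hochberg adjustment over 18451 features, and a gene was called where its adjusted p did not exceed 0.05 and the lines differed 2-fold or more, both limits from the series text. All 10 melanocyte markers on the list used here were well above background on all 6 arrays, which fits the labelled tumour type of both lines. Of them, 2 were called higher in B16-F1, Slc45a2 by 1.22 and Mc1r by 1.11, and 0 lower. Over all features tested, 6.29% were called higher and 8.89% lower. Mc1r fell short of 2-fold with normexp background correction and with scaling by the array median. Tyr was not called, but it was with the mean over its probes (1.21, limma adjusted p = 0.0038). A further Tyr probe was called higher in the fit over single probes (1.64, limma adjusted p = 0.00646). The list did not move in 1 direction, with 6 differences positive and 4 negative. By adjusted p alone, 4 were higher and 1 was lower, Mlana (-0.68, limma adjusted p = 0.0247).

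The set split into 4 genes with clear signal, 2 at the edge of detection and 4 without detectable signal. Vim, Nes, Lmna and Tubb3 were well above background on all 6 arrays. Gfap and Des were so on all 3 B16-F1 arrays and on 0 and 1 D5.1G4 arrays. Krt8, Krt18, Nefl and Nefm were not well above background on any array. The 6 genes with signal on at least 3 arrays were tested. Of these, 3 were called, Gfap higher and Lmna and Tubb3 lower in B16-F1, where 15.2% of all features tested were called, 6.29% higher and 8.89% lower. Adjusted p alone took 5 of the 6, 2 higher and 3 lower, against 34.9% of all features, 14.5% higher and 20.4% lower. For all 6 the lines were fully separated, as they were for 50.7% of features measured on every array. In the fit over single probes, 3 of 6 tested probes of the set were called, against 15.7% of all probes. Gfap and Des entered the test through their B16-F1 arrays, so these counts describe the genes and support nothing about the set.

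**Figure D1:**
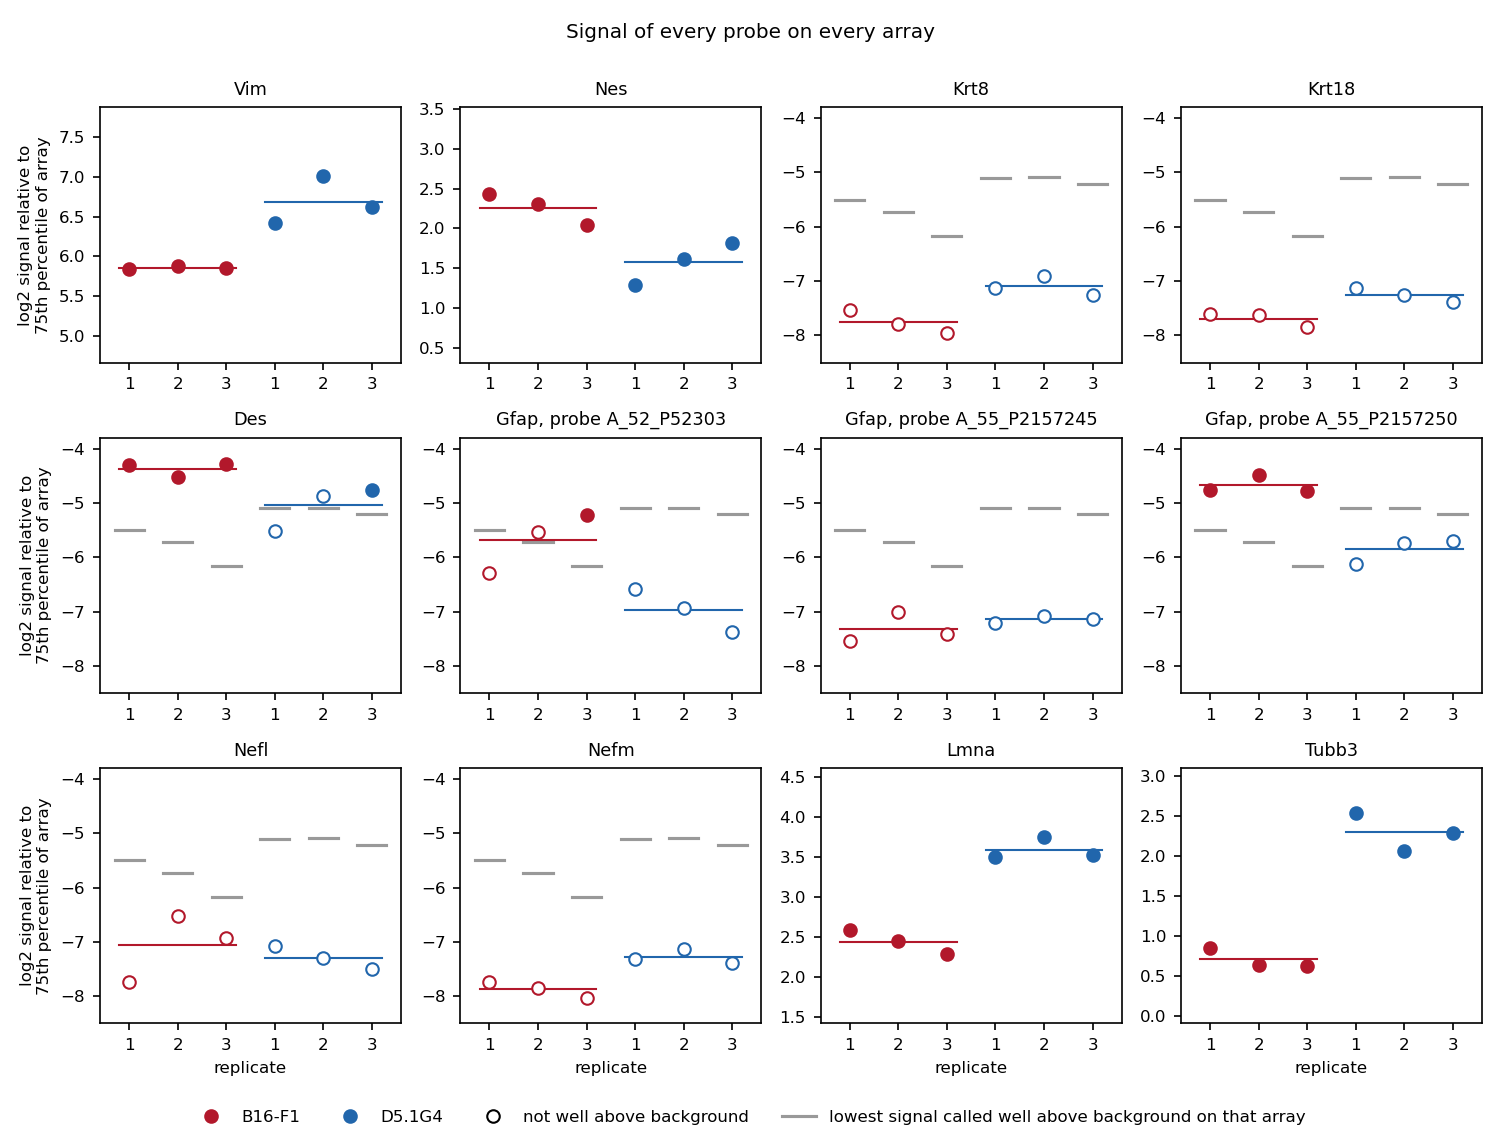
Log2 signal relative to the 75th percentile of the array (vertical axis) for each of the 12 probes on the 3 B16-F1 (red) and 3 D5.1G4 (blue) arrays, with the line's mean as a horizontal bar and, in the panels of dim probes, the lowest signal called well above background on that array in grey. Open circles are not well above background. Vim, Lmna and Tubb3 lie lower in B16-F1 on every array, Nes lies higher, and Krt8, Krt18, Nefl and Nefm lie under the grey bars throughout.

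The upstream sequences of the 4 clearly detected genes are shown because 3 of them, Vim, Lmna and Tubb3, were lower in B16-F1 while Nes was higher. Each is the 150 bases before an annotated start in the RefSeq promoter table of GRCm38.p6, 5′ to 3′ on the gene's strand, and the table held 8 of the 10 genes. Capitals mark, on either strand, the core letters of 3 promoter elements. They are TATAAA for the TATA box, then GGGCGG for the GC box, and the pentamer CCAAT for the box of that name. The Vim stretch is chr2:13574161-13574310 (+), that of Nes chr3:87970943-87971092 (+) and that of Tubb3 chr8:123411403-123411552 (+). Lmna has 2 annotated starts in the table, with the stretches chr3:88493313-88493462 (-) and chr3:88503353-88503502 (-), and the files do not tell which of them the signal comes from.
Vim: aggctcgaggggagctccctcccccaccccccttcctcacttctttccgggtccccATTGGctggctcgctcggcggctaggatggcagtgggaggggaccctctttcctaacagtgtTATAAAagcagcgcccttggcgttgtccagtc
Nes: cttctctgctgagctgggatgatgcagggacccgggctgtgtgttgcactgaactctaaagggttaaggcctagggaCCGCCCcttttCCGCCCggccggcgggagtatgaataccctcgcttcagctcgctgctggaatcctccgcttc
Tubb3: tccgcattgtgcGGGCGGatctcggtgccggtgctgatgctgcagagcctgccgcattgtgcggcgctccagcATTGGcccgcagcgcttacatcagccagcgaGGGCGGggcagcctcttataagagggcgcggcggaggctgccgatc
Lmna, start 1: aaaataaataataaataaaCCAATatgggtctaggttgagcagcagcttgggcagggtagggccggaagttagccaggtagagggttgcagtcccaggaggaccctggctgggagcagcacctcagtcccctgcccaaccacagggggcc
Lmna, start 2: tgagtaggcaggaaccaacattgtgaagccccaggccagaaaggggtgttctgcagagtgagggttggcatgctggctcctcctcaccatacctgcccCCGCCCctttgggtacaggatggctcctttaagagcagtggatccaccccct

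Of these stretches only that of Vim held TATAAA, which 7.57% of all 32851 promoter stretches of this length in the table hold. GGGCGG was found 2 times upstream of Nes, 2 times upstream of Tubb3 and 1 time upstream of the second Lmna start, and 28.6% of all stretches hold it. CCAAT, held by 24.5% of all stretches, was found 1 time each upstream of Vim, Tubb3 and the first Lmna start. The AP-1 letters TGANTCA and the letters CATGTG and CACGTG, E-boxes of the kind that MITF binds, were searched on both strands as well and had 0 matches in these 5 stretches. They are in 4.24%, 7.15% and 4.30% of all stretches. A match is a run of letters and no evidence of binding.

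Tubb3 showed the largest difference of the 6 tested genes. In B16-F1 its probe read 0.85, 0.64 and 0.63 (in the order of replicates 1 to 3, as for every gene that follows), and in D5.1G4 it read 2.54, 2.07 and 2.29. The 3 B16-F1 arrays lay close together and all under the lowest D5.1G4 array. The means were 0.71 ± 0.13 in B16-F1 and 2.30 ± 0.24 in D5.1G4 (SD, n = 3 each), and Tubb3 fell 3.02-fold in B16-F1 (log2 difference -1.59, SE 0.16, 95% interval -1.98 to -1.21, limma adjusted p = 0.000875). Within scan 2 the difference was -1.33 (limma adjusted p = 0.0236), with 1 B16-F1 array assumed to vary like the D5.1G4 pair. In RNA from whole cultures, fewer cells with the transcript and less of it per cell cannot be told apart, here and for every gene that follows.

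Lmna, which encodes lamins A and C of the nuclear lamina, was also lower in B16-F1. Its probe read 2.58, 2.45 and 2.28 on the B16-F1 arrays and 3.50, 3.75 and 3.53 on the D5.1G4 arrays. The groups were separated by a gap wider than the range of either. Lmna fell 2.22-fold (means 2.44 ± 0.15 and 3.59 ± 0.14, SD, n = 3 each). The log2 difference was -1.15 (SE 0.13, 95% interval -1.48 to -0.83, limma adjusted p = 0.00157). Within scan 2 it was -1.06 (limma adjusted p = 0.0349). The array has 1 probe for Lmna, annotated to 1 RefSeq transcript. Whether it reads the A transcript, the C transcript or both was not tested.

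Vim encodes vimentin, and its difference was in the same direction but under the minimum fold. The B16-F1 arrays read 5.84, 5.88 and 5.85 and the D5.1G4 arrays 6.42, 7.01 and 6.62. B16-F1 was nearly constant (SD 0.022) while D5.1G4 varied more (SD 0.30), and the groups did not overlap. The log2 difference of -0.82 (SE 0.17, 95% interval -1.24 to -0.41, limma adjusted p = 0.0121) is a 1.77-fold lower signal in B16-F1, and Vim was not called. Its size depended on the scaling. Quantile normalization gave -0.50 and the authors' values gave -0.49 (limma adjusted p = 0.0225 and 0.0185). Within scan 2 it was -0.97, with an adjusted p of 0.0614.

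Nes, the gene of the progenitor filament protein nestin, lay on the other side. The B16-F1 arrays read 2.43, 2.31 and 2.05 and the D5.1G4 arrays 1.29, 1.62 and 1.82. The lowest B16-F1 array was above the highest D5.1G4 array by a small margin. The means were 2.26 ± 0.19 and 1.58 ± 0.26 (SD, n = 3 each), a 1.61-fold higher signal in B16-F1. The log2 difference of 0.68 (SE 0.18, 95% interval 0.25 to 1.12, limma adjusted p = 0.0296) was under the minimum fold, so Nes was not called. The adjusted p was over 0.05 in 9 of 18 alternatives and reached 0.317 with the median of each array as its scale.

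**Figure D2:**
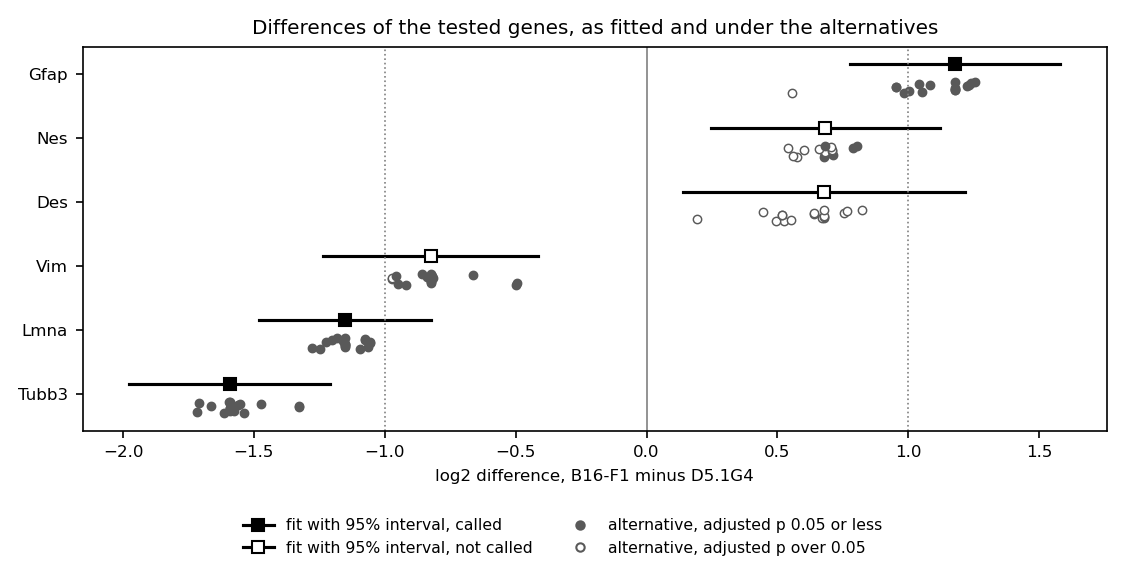
Log2 difference between B16-F1 and D5.1G4 (horizontal axis, dotted lines at a 2-fold difference) for the 6 tested genes. Squares with bars are the limma fit and its 95% interval, filled where the gene was called, and circles are the same difference under each alternative processing, filled where its adjusted p was 0.05 or less. All values for Tubb3 and Lmna lie beyond the 2-fold line, those for Vim and Nes lie inside it, and those for Gfap fall on both sides of it.

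Because vimentin copolymerises with nestin and desmin, the difference between the log2 signals of 2 genes was taken on each array and compared between the lines. Of 5 pairs planned, 3 could be tested. Vim minus Nes was 3.60 ± 0.20 in B16-F1 and 5.104 ± 0.29 in D5.1G4 (SD, n = 3 each), a shift of -1.51, with all B16-F1 arrays under all D5.1G4 arrays (exact permutation p = 0.1, 2-sided, adjusted over the 3 pairs 0.15). Vim minus Des shifted by -1.50 (exact permutation p = 0.1, adjusted 0.15), but Des was well above background on only 1 of the 3 D5.1G4 arrays, so the size of that shift rests on readings below detection. Vim minus Lmna shifted by 0.33 and the arrays of the lines overlapped (exact permutation p = 0.2). With 3 arrays against 3 the smallest p this test can give is 0.1, so it could not pass 0.05. Vim alone lay lower, and Nes and Des each higher, on every B16-F1 array than on any D5.1G4 array. The pairs of Vim with Nes and with Des therefore had to separate the lines, and their p adds nothing to the single genes.

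Des encodes desmin, the intermediate filament protein of muscle, and its signal was faint. The mean over its kept spots read -4.29, -4.52 and -4.29 on the B16-F1 arrays and -5.51, -4.87 and -4.76 on the D5.1G4 arrays. The arrays did not overlap, but D5.1G4 replicate 1 stood lowest by a wide margin. The 10 spots show how close the probe was to the limit. All 10 were well above background on each B16-F1 array. In D5.1G4 the number was 2 for replicate 1, 5 for replicate 2 and 9 for replicate 3. The SD between kept spots of 1 array ran from 0.080 to 0.16 in B16-F1 and from 0.16 to 0.38 in D5.1G4. The log2 difference was 0.68 (SE 0.22, 95% interval 0.14 to 1.21, limma adjusted p = 0.0586), and Des was not called. Without D5.1G4 replicate 1 the difference was 0.44 (limma adjusted p = 0.0547), and with the authors' values it was 0.19 (limma adjusted p = 0.573).

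**Figure D3:**
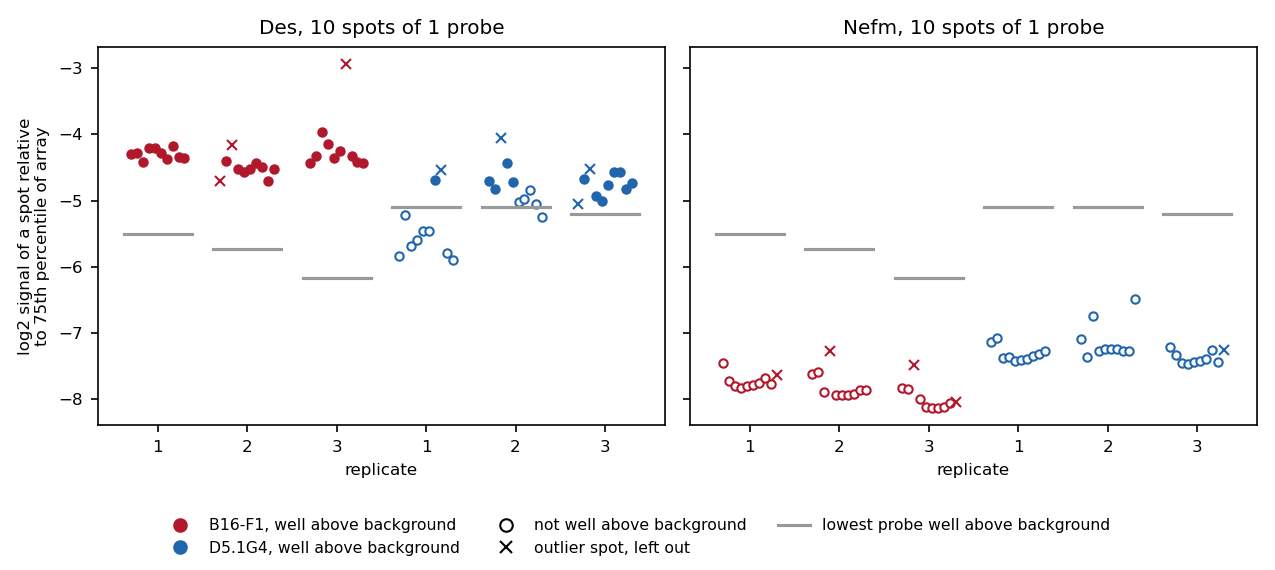
Log2 signal of each of the 10 spots of the Des probe (left) and the Nefm probe (right) on every array, relative to the 75th percentile of the array. Filled circles are spots well above background, open circles are not, crosses are outlier spots left out, and the grey bar is the lowest probe well above background on that array. The Des spots of B16-F1 (red) lie above the bar, and of D5.1G4 (blue) those of replicates 1 and 2 fall on both sides of it and those of replicate 3 above it, whereas all Nefm spots lie under it.

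Gfap, the astroglial filament gene, had 3 probes with unlike readings. Probe A_55_P2157250 read -4.76, -4.48 and -4.78 on the B16-F1 arrays, all well above background, and -6.13, -5.73 and -5.70 on the D5.1G4 arrays, none of them well above background. The highest D5.1G4 array was lower than the lowest B16-F1 array. This probe stood for the gene, passed the filter through its B16-F1 arrays alone, and was called on a fit that takes the D5.1G4 readings below detection at face value (log2 difference 1.18, SE 0.17, 95% interval 0.78 to 1.58, limma adjusted p = 0.00306). Since D5.1G4 has only a bound, set on each array by the dimmest detected probe or by the Gfap probe itself, whichever read higher, the B16-F1 signal of Gfap was at least 1.37-fold higher. This bound does not reach the 2-fold limit of a call.

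The second Gfap probe, A_52_P52303, read -6.29, -5.53 and -5.23 in B16-F1 and -6.59, -6.94 and -7.38 in D5.1G4. It was well above background only on B16-F1 replicate 3 and was not tested. All its B16-F1 readings lay above its D5.1G4 readings, with means 1.29 apart, but most of these readings were below detection. The third probe, A_55_P2157245, read between -7.54 and -7.01 on all 6 arrays, with 0 of them well above background. The called probe, A_55_P2157250, is annotated to another RefSeq transcript of Gfap than A_52_P52303 and A_55_P2157245. Whether the probes read different transcripts here was not tested. So 1 of 3 probes, the called one, placed Gfap above background on all 3 B16-F1 arrays. Its intensities there were 53.1, 60.8 and 74.1 units, where the 75th percentile of an array ran from 838.9 to 2034.6. The call was lost with normexp background correction (0.56, limma adjusted p = 0.612), fell short of 2-fold with quantile normalization (0.98), and did so within scan 2 and with scan as a block (0.95 in both).

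The paired simple-epithelial keratin genes Krt8 and Krt18 gave background readings in both lines. Krt8 read -7.52, -7.79 and -7.95 in B16-F1 and -7.13, -6.91 and -7.25 in D5.1G4. Krt18 read -7.61, -7.61 and -7.85 in B16-F1 and -7.12, -7.26 and -7.38 in D5.1G4. All these values lay 1.68 to 2.17 log2 units under the lowest signal called well above background on the same array, so they give no level and no fold. At this signal, a transcript below that limit was not detectable in either line.

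The neurofilament genes Nefl and Nefm, of the light and medium chains, were not detected either. Nefl read -7.73, -6.52 and -6.92 in B16-F1 and -7.07, -7.30 and -7.49 in D5.1G4, with B16-F1 replicates 2 and 3, the arrays of scan 1, the highest. Nefm read -7.74, -7.84 and -8.03 in B16-F1 and -7.31, -7.12 and -7.38 in D5.1G4. Of its 10 spots, 0 were well above background on any of the 6 arrays. The B16-F1 values of Krt8, Krt18 and Nefm were all lower than those of D5.1G4, a separation among values under the detection limit, where the order between arrays carries no level. The heavy chain gene Nefh, on the list of other family members, was below detection on all 6 arrays.

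Tested genes on each side of these undetected pairs were read as well. Krt8 and Krt18 lie next to each other on chromosome 15, with 2 predicted genes between them in the RefSeq gene order, and Nefm and Nefl on chromosome 14, with 1 between them. The 3 nearest tested genes on each side were Krt79, Krt73, Krt5, Eif4b, Tns2 and Spryd3 for the keratins and Dock5, Kctd9, Cdca2, Adam7, Slc25a37 and Synb for the neurofilaments. They lay 2 to 13 places away in the gene order for the keratins and 5 to 25 for the neurofilaments, so not all are close neighbours. Their log2 differences ran from -0.78 to 0.53, and 0 of the 12 were called. Kctd9 had the smallest adjusted p (-0.78, SE 0.12, limma adjusted p = 0.00402), with the other 11 at 0.0807 or more.

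Other members of the intermediate filament family were mostly undetected or not called. Of 60 further genes with a probe, 31 were not well above background on any array and 16 were tested. Of those, 1 rose and 1 fell (12.5%, against 15.2% of all features), with a median log2 difference of 0.15 against -0.0041 over all features. Over the alternatives the list's median ran from -0.34 to 0.28, so its sign depended on the setting. For the unadjusted counts given with the lists that follow, 19.1% of all features were higher and 25.7% lower at an unadjusted p under 0.05. The gene that rose was Bfsp2, which encodes phakinin of the beaded filaments of the lens. It read 3.85, 3.56 and 3.22 in B16-F1 and -1.46, -1.23 and -1.24 in D5.1G4. All arrays of both lines were well above background, and Bfsp2 rose 28.9-fold in B16-F1 (a log2 difference of 4.85, SE 0.18, limma adjusted p = 3.82e-05).

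The family gene that fell was Prph, which encodes peripherin, an intermediate filament protein of peripheral neurons. It read -4.77, -4.53 and -5.13 in B16-F1 and -3.14, -2.34 and -2.20 in D5.1G4, above background throughout. It was 4.76-fold lower in B16-F1 (log2 difference -2.25, SE 0.29, limma adjusted p = 0.0022), and the call was lost with normexp (-0.999, limma adjusted p = 0.335). Ina, which encodes alpha-internexin of central neurons, was above background on all arrays and differed by 0.20 (limma adjusted p = 0.635). Its difference turned negative within scan 2 (-0.20). The B-type lamin genes Lmnb1 and Lmnb2 differed by -0.46 and -0.60 (limma adjusted p = 0.13 and 0.0751), in the direction of Lmna but not called. With scan as a block and within scan 2, Lmnb2 was called at -1.04 (limma adjusted p = 0.0447 and 0.0269).

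Keratin genes other than the 2 members gave 51 genes with a probe. Of these, 28 were not well above background on any array, 11 were tested and 0 were called by limma, with 1 at an unadjusted p under 0.05. That gene was Krt86, a hair keratin, with a log2 difference of 1.16 (limma adjusted p = 0.0752). Krt86 was called in 5 of 18 alternatives, among them the authors' values (1.16, limma adjusted p = 0.0397) and the fit without B16-F1 replicate 1 (1.57, 0.0132). The others lay between -0.41 and 0.69. Without B16-F1 replicate 1, Krt6b and Krt9 were called higher as well (1.43 and 1.23, limma adjusted p = 0.0343 and 0.0249), whereas within scan 2 Krt6b was called lower (-1.28, 0.0372), so its direction depended on the arrays used. In total 9 of the 51 were well above background on all 6 arrays, among them the basal epithelial keratins Krt5 and Krt14. Krt5 and Krt14 differed by 0.24 and -0.22 (limma adjusted p = 0.629 and 0.66). Their signs turned in some alternatives, to -0.07 for Krt5 within scan 2 and to 0.16 for Krt14 without B16-F1 replicate 1.

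Genes that tie filaments to junctions and to other parts of the cytoskeleton were examined as 12 linkers, of which 7 were tested. By limma 0 rose and 1 fell (14.3%, against 15.2% of all features), with a median of -0.56. At an unadjusted p under 0.05 the counts were 0 and 4. Pkp2, which encodes plakophilin 2 of desmosomal plaques, fell by 1.32 on the log2 scale (SE 0.20, limma adjusted p = 0.00382), a call lost with normexp (adjusted p = 0.0578) and with scan as a block (0.059). Plec, which encodes plectin, a linker of vimentin filaments, differed by -0.83 (limma adjusted p = 0.0294), and Macf1, a linker of actin and microtubules, by -0.82 (0.0113), both short of 2-fold. Macf1 had no value on D5.1G4 replicate 2, so its difference rests on the other D5.1G4 arrays.

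Partners of the lamins in the nuclear envelope gave 0 higher and 1 lower of 19 tested (5.26%, against 15.2% of all features). Their median was -0.23 and, at an unadjusted p under 0.05, 3 were higher and 7 lower. The gene that fell was Lemd3, which encodes an inner nuclear membrane protein that binds lamins (log2 difference -1.18, SE 0.14, limma adjusted p = 0.00178). Another of its probes gave -0.41 (limma adjusted p = 0.247), and the difference fell short of 2-fold with scan as a block (-0.98) and with the mean over its probes (-0.79). Zmpste24, the protease that trims prelamin A, differed by -0.67 (limma adjusted p = 0.0092), and Sun2, which links the lamina to the cytoskeleton, by -0.84 (0.00599). The lamin B receptor gene Lbr differed by 0.45 (0.0196), and Rce1 and Sun1 by 0.57 and 0.46 (limma adjusted p = 0.0439 and 0.0493). None of these genes reached 2-fold. By limma adjusted p alone, 3 of the list were higher and 6 lower. Tmpo, which encodes the lamina-associated polypeptide 2 proteins, differed by -0.98 (limma adjusted p = 0.00265), with its 3 further probes also negative, and was called in 4 alternatives, among them those that dropped replicate 1 of B16-F1 (-1.07) or replicate 2 of D5.1G4 (-1.03). Syne3, a nesprin gene, differed by -0.94 (limma adjusted p = 0.0148) and was called in 6, among them that without B16-F1 replicate 3 (-1.12). The list's count of lower calls ran from 0 to 3 over the alternatives.

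**Figure D4:**
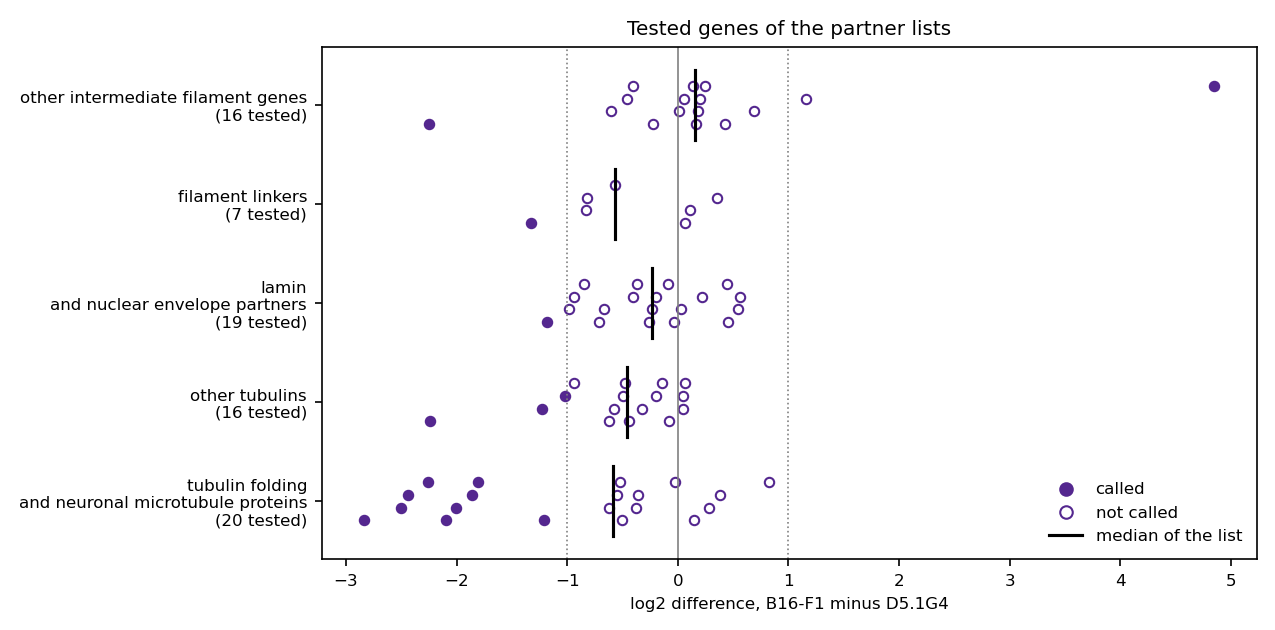
Log2 difference between B16-F1 and D5.1G4 (horizontal axis, dotted lines at a 2-fold difference) of each tested gene in the 5 lists of related genes. Filled points were called, open points were not, and the black bar is the list's median. The called tubulin and microtubule genes all lie on the negative side, and Bfsp2 stands alone at 4.85.

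Of the other tubulin genes, 16 were tested, 0 rose and 3 fell by limma (18.8%, against 15.2% of all features), with a median of -0.46. At an unadjusted p under 0.05 there were 0 higher and 7 lower. Tubb2b, a beta-tubulin of developing neurons, had the largest difference. It read 0.73, 0.70 and 0.95 in B16-F1 and 3.18, 3.02 and 2.89 in D5.1G4. It fell 4.71-fold (log2 difference -2.24, SE 0.13, limma adjusted p = 0.000145), and a further probe gave -2.16. Tuba1a, the main alpha-tubulin of developing neurons, fell by 1.22 on the log2 scale (SE 0.16, limma adjusted p = 0.00245). Tubb6 fell by 1.02 (SE 0.13) and was under 2-fold in 6 alternatives, among them the authors' values (-0.91), scan as a block (-0.92) and the fits that left out B16-F1 replicate 3 (-0.94) or, of D5.1G4, replicate 2 (-0.97). Tubb2a, the near neighbour of Tubb2b in sequence, differed by 0.066 (limma adjusted p = 0.834). Tube1, the epsilon-tubulin gene, differed by -0.94 (0.00415) and was called when replicate 1 of B16-F1 (-1.04) or of D5.1G4 (-1.02) was dropped, and with the array median as scale. On a hybridisation array, near-identical tubulin copies may share signal.

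Tubulin folding and neuronal microtubule genes gave the highest share of calls among the lists of related genes. As those lists were drawn up with earlier results of these data known, the share describes the genes and supports nothing about the list. Of 20 tested, 0 rose and 9 fell by limma (45.0%, against 8.89% of all features called lower), with a median of -0.59, and at an unadjusted p under 0.05 there were 2 higher and 14 lower. Dclk1, a microtubule-associated kinase of developing neurons, read -2.53, -2.45 and -2.45 in B16-F1 and 0.59, 0.10 and 0.38 in D5.1G4, and was 7.13-fold lower (limma adjusted p = 9.42e-05), while its further probes gave -4.06 and -0.23. Map2, the dendritic microtubule protein gene, was 5.66-fold lower (log2 difference -2.50, SE 0.15, limma adjusted p = 0.000135), with -2.75 from another probe. Map6, whose product keeps microtubules stable in the cold, differed by -2.44 (limma adjusted p = 0.000379), where another probe gave 0.073. Map1a differed by -2.26 (limma adjusted p = 0.00349), a call lost with normexp (-1.07, adjusted p = 0.305).

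The other 5 that fell, named after their values were seen, were Map7, Dpysl3, Kif5a, Stmn4 and Crmp1. Kif5a, a neuronal kinesin gene, was at least 3.26-fold lower and not well above background in B16-F1, and its call and that of Map7 were lost with normexp. Stmn4, a neuronal stathmin gene, differed by -1.81 (limma adjusted p = 0.0208), and its call was also lost with normexp and without D5.1G4 replicate 1 (adjusted p = 0.0627) or replicate 2 (0.0699). Against this direction, Map1b, which acts in growing axons, differed by 0.82 (limma adjusted p = 0.0189) and was not called. With normexp 5 of the 20 were called lower and 0 higher. The folding cofactor genes Tbca, Tbcb, Tbcc, Tbcd and Tbce were not called, 3 of them with an adjusted p under 0.05 and differences of -0.52 to -0.36.

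Markers of the cell types that these filaments mark were read beside the set. Of 11 muscle markers, 1 was well above background on B16-F1 replicate 1 and on each D5.1G4 array, but 5 and 4 on B16-F1 replicates 2 and 3, the arrays of scan 1. Myod1, Myog and Myh7 were above background on 2 B16-F1 arrays and 0 D5.1G4 arrays each, and Acta1, Ckm, Cnn1, Myf5, Myh11 and Myh2 on 0 arrays. The summed signal of the list ran from 0.129 to 0.334 times the 75th percentile in B16-F1 and from 0.148 to 0.184 in D5.1G4. The part of these arrays in the Des and Gfap readings was not tested, beyond the within-scan differences of 0.52 for Des and 0.95 for Gfap.

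Of 10 astrocyte and glial markers, 7 were tested. Fabp7 rose by 2.08, and Gja1 and S100b, the latter also a melanocyte and melanoma marker, fell by 2.57 and 1.93 (limma adjusted p = 0.000145, 0.000505 and 0.00039). The Gja1 call was lost with normexp (-1.28, limma adjusted p = 0.18). The glutamate transporter genes Slc1a2 and Slc1a3 were not above background on any array. The summed signal ran from 15.2 to 17.3 in B16-F1 and from 29.8 to 35.5 in D5.1G4. Most of the D5.1G4 sum was S100b alone, at 26.7 to 32.5 against 6.48 to 8.52 in B16-F1. The median difference of the list went the other way (0.52, with 5 of the 7 positive). Over the alternatives that median ran from -0.32 to 1.05, so its sign depended on the setting.

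Of 10 neuronal markers, Rbfox3, Elavl3, Syt1, Syn1 and Stmn2 were not above background on any array, although Tubb3 was detected on all. Of the 4 tested, Uchl1 rose by 1.68 (limma adjusted p = 0.000836) and the other three were not called. The list's summed signal ran from 3.90 to 5.1005 in B16-F1 and from 3.31 to 4.38 in D5.1G4. Of 12 epithelial markers, Epcam, Cldn3, Cldn4, Grhl2, Krt7 and Krt20 were not above background on any array. Cdh1, the E-cadherin gene, was the 1 called of 5 tested and at least 2.42-fold lower in B16-F1, a call lost with normexp (limma adjusted p = 0.814) and with the authors' values (0.0899). Over the whole list the summed signal ran from 0.371 to 0.802 in B16-F1 and from 0.485 to 0.641 in D5.1G4. The epithelial list shares 5 keratins with the list of other family genes, and the neuronal list shares 2 genes with the microtubule list. Leukocyte and endothelial markers had summed signals of 0.966 to 2.28 and 0.750 to 1.55 over the 6 arrays. By limma 0 endothelial genes were called, and 0 had an unadjusted p under 0.05. The 1 called leukocyte gene, Cd14, was not well above background in D5.1G4 and at least 1.35-fold higher in B16-F1, a bound under the 2-fold limit, and the call was lost without any 1 of the B16-F1 arrays (limma adjusted p = 0.0576 to 0.0879) and under other settings. Without B16-F1 replicate 1, Acta2, Aqp4 and Csf1r of the marker lists were called higher as well (1.11 to 1.30).

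The genes whose values ran most like those of a called member were found by the root-mean-square distance of values centred over the 6 arrays, among 12055 named genes. For Tubb3 these were Gprasp1, Inpp4a and Sema3c, at distances of 0.066, 0.075 and 0.098 log2 units. For Lmna they were Knop1, Polr2l and Msantd1, at 0.023, 0.039 and 0.045, and for Gfap Get1, Nme3 and Cyp4f16, at 0.057, 0.061 and 0.068. The D5.1G4 readings of Gfap were all below detection, so its matches rest in part on values without a level. All these values share the same 6 arrays, and the distances are given as a description of them.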

How the data were processed

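RNA of 6 samples was read on Agilent mouse 4x44K v2 arrays, 1 sample an array. The deposited scanner files give each spot's intensity, background-subtracted and detrended by Agilent Feature Extraction 11.0.1.1, per the file headers, with no step between arrays and with 0 or 1 flags. The authors' own table holds log2 values for 22147 probes. Its normalization is not stated here, and it served as an alternative.

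Spots flagged non-uniform or outlying (0.674% to 1.58% of an array) were left out and spots of a probe averaged. A probe counted as well above background on an array where at least 50% of its kept spots did. Accessions were matched without version to the RefSeq gene table of GRCm38.p6, while the array is annotated on mm9, so no coordinates of genes or probes are given. Those of the printed upstream stretches are the promoter table's own, in GRCm38.p6. In all 27234 probes (69.1%) matched 1 gene, 0 several and 12195 none. The probe with the highest mean stood for a gene, and features above background on at least 3 of 6 arrays were tested with limma 3.58.1 in R 4.3.3, checked on simulated data, with the line as the only term. The number of arrays limits precision.

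The members, lists and rules were chosen with earlier results of these data known. Named genes are all members, up to 4 called genes with the largest difference of each list, the neighbours and the 3 most similar genes of each called member. Any other gene in the text was picked with its values in view. The files hold no mean spot signal, so normexp used the median. Results for some glial markers are not reported here.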

Additional observations from a re-analysis of the deposited data

How the results depend on the processing

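Over the alternatives run, Lmna and Tubb3 were called in all 18, with differences from -1.28 to -1.06 and from -1.72 to -1.33. Vim stayed negative in all 18 (-0.97 to -0.49) and Nes positive (0.54 to 0.80), neither called in any. Des stayed positive and uncalled in the 17 that tested it (0.19 to 0.82), and the Gfap call was lost in 4 of 17, namely normexp, quantile normalization, scan as a block and the scan that holds both lines. The members called numbered 2 or 3 in every alternative and 3 without any single array. Probes of members numbered 2 to 4, with 4 when no filter on dim probes was used. Over all features, normexp called 1272 in place of 2800, and the cause was not tested. Leaving out a single array gave 2531 to 3379 calls. Scaling by the median of each array moved the median of all differences to -0.13. Of 25 called genes in the lists, 10 lost the call with normexp and 0 to 3 under each other alternative. Deviations of same-numbered replicates correlated at -0.387, -0.0278 and -0.304. No same-numbered pair shared a scan, so these values cannot decide whether the numbers pair the samples. The replicate block called 2585 features and 3 members. The signal over background limits Des, Gfap and the genes below detection.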
